A study of Mus musculus with 2 samples.

Results

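The receptors for IL-2, IL-4, IL-7, IL-9 and IL-15 share the common gamma chain, encoded by Il2rg, and 7 genes for their chains were followed here in regulatory T cells (Treg). These were Il2ra, Il2rb, Il2rg, Il4ra, Il7r, Il9r and Il15ra, out of 18193 genes that the platform annotation pairs with a probe set. A probe set, the group of short probes that reads 1 transcript, was taken where the annotation names exactly 1 of these genes. This gave 12 probe sets for 6 of the 7 genes. The annotation used here pairs none with Il2rg, so the gamma chain itself was not analysed here.

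RNA came from Treg of spleen and lymph nodes, sorted by FACS from female mice 6 to 8 weeks old. The 2 groups were Foxp3 Cre/wtS Stat3 fl/wt and Foxp3 Cre/wtS Stat3 fl/fl, with 1 array each. Both carried a Cre recombinase at 1 Foxp3 allele, and they differed in having 1 or 2 loxP-flanked (floxed) Stat3 alleles, which Cre can delete. Because Foxp3 is X-linked, Cre in these females is made only by Treg that have kept the Cre-bearing X active. The labels leave unsaid whether the gate was set on those cells and how many mice were pooled per array. The question was what the loss of Stat3, a transcription factor downstream of several cytokine receptors, does to Treg transcripts. Each genotype has a single array, so no difference given here has a replicate check, and none was tested.

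Gamma chain receptors work through paired kinases. Jak1 sits on the ligand-specific chain and Jak3 on the gamma chain, and they phosphorylate mainly Stat5 for IL-2, IL-7, IL-9 and IL-15, and Stat6 for IL-4. Treg depend on IL-2 made by other T cells, which they capture with a high-affinity receptor of Il2ra, Il2rb and the gamma chain. IL-7 and IL-15 maintain T cells at rest, and resting Treg are known for less surface IL-7 receptor than other CD4 T cells.

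Levels are GCRMA values on the log2 scale, so that a step of 1 is a 2-fold change in signal. Values under log2 5 lie in the dense low end of these arrays and have no order. A probe set is called measured where it read at or above log2 5 in both arrays, which 19363 probe sets did, and 8 of the 12 receptor probe sets. A gene is called measured where its brightest probe set reached log2 5 in at least 1 array. Differences are fl/fl minus fl/wt. A rank sets probe sets of different affinity side by side, so it places a reading within its array and does not order genes by transcript number.

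The labels were checked first. The 3 measured Stat3 probe sets differed by -0.083 to -0.0083, and since their position relative to the deleted exons is unstated, they do not check the genotype. Of the 11 Treg marker genes with a probe set, 10 were measured, with a median difference of 0.0051. The exception was Foxp3, under log2 5 in both arrays, at 4.09 (fl/wt) against 3.52 (fl/fl). Markers of other cells were present as well. Of the 12 myeloid markers with a probe set 11 were measured, among them Csf1r, the receptor for the macrophage growth factor M-CSF, at 13.99 (fl/wt) against 14.00 (fl/fl). The log2 of their summed linear signal was 16.67 in both arrays. Receptor levels below are those of the sorted population as a whole, in which fewer cells of a type and less RNA per cell cannot be told apart.

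The receptor chains read nearly alike in both genotypes. Of the 5 genes that were measured, 2 read higher and 3 lower in fl/fl, between -0.10 and 0.093, with a median of -0.023. Among all 9773 genes that reached log2 5 in either array, 47.5% were higher and 52.5% lower, and the median was -0.0045. No receptor gene differed by 1.5-fold, against 0.645% of all genes. One gene of the 5, Il2ra, differed by at least 0.1, against 26.8% of all genes. Taken by probe set, 2 of the 8 were higher and 6 lower, where 49.1% and 50.9% of all measured probe sets were. Their median size was 0.036, against 0.058 over all measured probe sets, and 2 of the 8 differed by at least 0.1, against 31.2%.

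**Figure D1:**
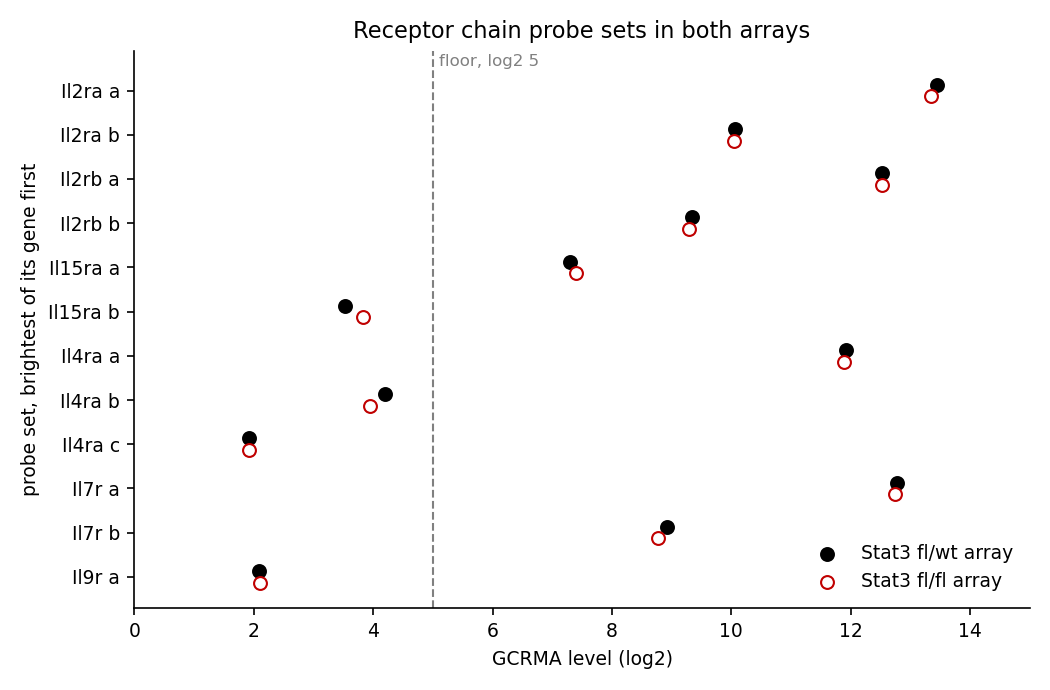
GCRMA level (log2) of all 12 receptor probe sets in the fl/wt array (filled) and the fl/fl array (open), with letters marking the probe sets of a gene from brightest to dimmest and a dashed line at log2 5. The 8 measured probe sets differ by at most 0.14 between the arrays, while probe sets of the same gene lie far apart, such as Il2ra at 13.45 and 10.06 in fl/wt.

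The alpha chain of the IL-2 receptor, Il2ra (CD25), gives the receptor its high affinity and is the surface marker by which Treg are often sorted. Its brighter probe set read 13.45 (fl/wt) against 13.35 (fl/fl), differing by -0.10, a change of -6.86 percent in linear signal. This was rank 1075 of 45037 in fl/wt and rank 1193 in fl/fl, inside the top 2.39 and 2.65 percent. Readings this bright vary little between the arrays: of the 973 measured probe sets within 0.5 of it in mean level, 3.08 percent differed by as much or more, and their median size was 0.028. The dimmer Il2ra probe set did not show a difference of that size. It read 10.06 (fl/wt) against 10.05 (fl/fl), differing by -0.014, and 85.8 percent of the 2894 probe sets near it in level differed by at least as much. The 2 readings have the same sign and differ in size, and their median is -0.058.

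Il2rb (CD122) is the signalling chain that IL-2 and IL-15 share. Its brighter probe set read 12.53 in both arrays, a difference of 0.0012, at rank 2220 in fl/wt and 2212 in fl/fl. The dimmer one read 9.34 (fl/wt) against 9.29 (fl/fl), differing by -0.047. The pair differ in sign, with a median of -0.023, and of the probe sets near them in level 97.8 and 61.8 percent differed by at least as much. CD8 T cells and NK cells also carry Il2rb. Of the 10 CD8 and NK markers with a probe set 6 were measured, with a median difference of 0.033 and a log2 summed signal of 11.30 in both arrays. The brightest of these markers was Nkg7, at 10.65 (fl/wt) against 10.59 (fl/fl). Of the CD8 genes, Cd8b1 read 8.54 (fl/wt) against 8.81 (fl/fl), differing by 0.27, and Cd8a 8.29 against 8.26, differing by -0.028. Another 4 markers, among them the NK receptor gene Ncr1 (2.13 and 2.14), were under log2 5 in both. Whether those cells contribute to the Il2rb reading was not tested.

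Il15ra presents IL-15 to neighbouring cells that carry Il2rb and the gamma chain. It was the only measured receptor gene more than 0.05 higher in fl/fl. Its measured probe set read 7.30 (fl/wt) against 7.39 (fl/fl), differing by 0.093, at rank 15496 and 15273. At this level the arrays scatter widely, and 55.5 percent of the 2308 measured probe sets near it differed by at least as much. The other Il15ra probe set stayed under log2 5, at 3.53 and 3.82. Dendritic cells and macrophages present IL-15. Of 8 dendritic markers with a probe set, 3 were measured and the rest were under log2 5 in both arrays. The 3 measured all read higher in fl/fl, where 47.5% of all genes did. Their differences were 0.0090 for Bst2, 0.18 for Batf3 and 0.20 for Itgax. The log2 of their summed signal was 11.79 (fl/wt) against 11.83 (fl/fl). Most of that sum was Bst2, at 11.60 (fl/wt) against 11.61 (fl/fl). The part of dendritic cells in the Il15ra reading was not tested. Of the 11 measured myeloid markers, 5 read higher and 6 lower, with a median of -0.00055.

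Il4ra binds IL-4 and, with a partner chain, IL-13. It pairs with the gamma chain in the type I receptor of lymphocytes and with Il13ra1 in the type II receptor. Its measured probe set read 11.92 (fl/wt) against 11.89 (fl/fl), differing by -0.024, at rank 3273 and 3311. The other 2 Il4ra probe sets were under log2 5 in both arrays, at 4.19 and 3.95 for one and at 1.92 and 1.93 for the other. B cells carry Il4ra as well. Of the 10 B cell markers with a probe set 6 were measured, of which 1 read higher and 5 lower, against 47.5% and 52.5% of all genes. Their median was -0.10, and their log2 summed signal 11.32 (fl/wt) against 11.24 (fl/fl). That of the myeloid markers was higher, at 16.67 in both arrays. The brightest B cell markers were Cd79b, at 10.34 (fl/wt) against 10.26 (fl/fl), and Cd22, at 8.81 against 8.68. Another 4, among them Pax5 (1.88 and 1.89), were under log2 5 in both. The part of B cells or myeloid cells in the Il4ra reading was not tested.

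Il7r (CD127) is the ligand-binding chain for IL-7 and, with Crlf2, for the epithelial cytokine TSLP. The brighter of its probe sets read 12.77 (fl/wt) against 12.75 (fl/fl), differing by -0.023, at rank 1879 and 1907. The dimmer one read 8.92 (fl/wt) against 8.78 (fl/fl), differing by -0.14, and dropped from rank 11238 to rank 11657. This was the largest difference among the 8 measured receptor probe sets, and 20.6 percent of the 2922 probe sets near it in level differed by at least as much. Both Il7r readings were lower in fl/fl, with a median of -0.083, and the brighter one by a size that 62.5 percent of its neighbours in level reached.

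Il9r, the receptor chain for IL-9, had a single probe set, under log2 5 in both arrays at 2.09 and 2.11. Mast cells carry Il9r, and all 8 mast cell and basophil markers were also under log2 5 in both arrays. The reading does not show that the transcript is absent, since no other probe set of the gene was read.

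**Figure D2:**
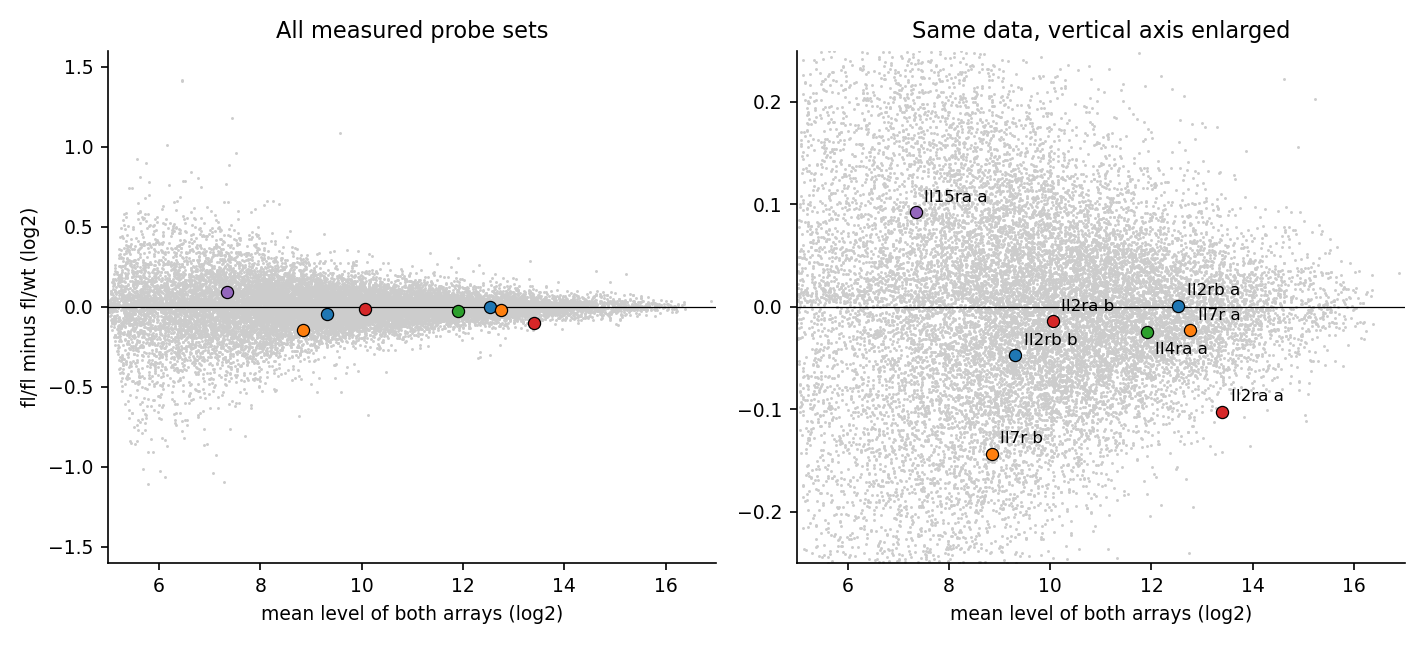
Difference fl/fl minus fl/wt (log2) against the mean level of both arrays (log2) for all measured probe sets (grey) and the 8 receptor probe sets (coloured by gene), with the right panel enlarged and leaving out points beyond its axis. Scatter narrows as level rises, and the brighter Il2ra probe set at -0.10 lies near the lower edge of the readings at its level.

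The sequence before the transcription start was read for the receptor genes because Stat factors, which both Stat3 and these receptors' own Stat5 belong to, bind the motif TTCNNNGAA. The motif reads the same on both strands. RefSeq windows of the GRCm38.p6 build were given for 6 of the 7 genes, 7 windows in all, and Il2rb is not among them. In the 250 bases before each start, 1 of the 7 windows held the motif, that of Il7r, against 7.02 percent of all 32851 windows of that length. It lies 142 to 134 bases before the start used for the window. The Il7r stretch shown ends short of that start, because the window (chr15:9529877-9530126) reaches into an annotated transcript. The sequences shown are the part of the Il7r window before any annotated transcript (chr15:9529942-9530126, minus strand), with the motif in capitals, and for comparison the Il2ra window (chr2:11642542-11642791, plus strand), the receptor gene whose difference was largest by the brightest probe set. The Il7r stretch has a G and C content of 43.8 percent and the Il2ra one of 42.4 percent, and the median of all windows is 52.4 percent.
Il7r: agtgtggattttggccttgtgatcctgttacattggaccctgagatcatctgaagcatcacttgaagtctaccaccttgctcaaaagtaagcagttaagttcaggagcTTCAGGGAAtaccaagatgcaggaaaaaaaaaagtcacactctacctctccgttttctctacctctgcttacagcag
Il2ra: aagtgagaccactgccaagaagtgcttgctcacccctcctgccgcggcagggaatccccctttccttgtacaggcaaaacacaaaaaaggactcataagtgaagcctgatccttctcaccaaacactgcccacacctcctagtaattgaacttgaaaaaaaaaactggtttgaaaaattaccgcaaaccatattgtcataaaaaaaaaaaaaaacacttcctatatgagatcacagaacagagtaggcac
A match to these letters is a description of the sequence and does not show binding. Il7r, with the motif, differed by -0.023 and -0.14 in its probe sets, and Il2ra, without it in this window, by -0.10 and -0.014.

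The 3 genes with a pair of measured probe sets allow a check within the arrays. Their paired differences lay 0.089 apart for Il2ra, 0.048 for Il2rb and 0.12 for Il7r. Over all 2586 genes with exactly 2 measured probe sets, the median was 0.095. The sign matched for 2 of the 3 receptor genes and for 49.8 percent of all such genes. The spread between probe sets of a gene, as a pooled SD over 4227 genes with at least 2, was 0.14, larger than the difference of each receptor gene as read by its brightest probe set. That SD pools probe sets of all levels, and bright readings vary less. Near the brighter Il2ra probe set in level, the central 95 percent of differences ran from -0.081 to 0.098. Its difference of -0.10 lay outside that range, while the dimmer Il2ra probe set differed by -0.014. Levels of paired probe sets lay much further apart than the genotypes did. In fl/wt the gap was 3.38 for Il2ra, 3.19 for Il2rb and 3.85 for Il7r, or 10.4-fold, 9.16-fold and 14.4-fold in signal. In fl/fl it was 3.29, 3.24 and 3.97. The median gap over all such genes was 1.82, and 27.5 percent had a gap of at least 3. A level read from these arrays is therefore that of a probe set, and no order of the chains by transcript number is given.

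**Figure D3:**
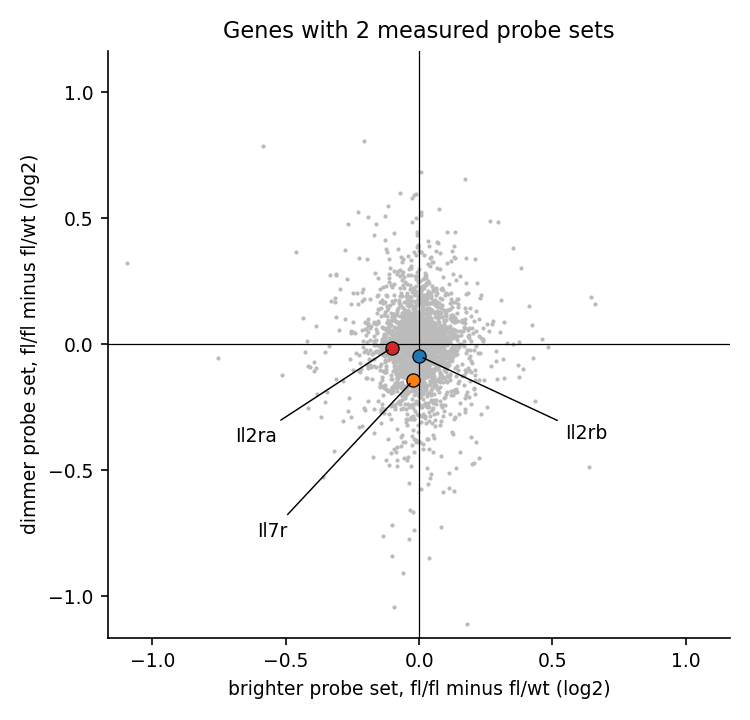
Difference fl/fl minus fl/wt (log2) of the dimmer against the brighter probe set for the 2586 genes with exactly 2 measured probe sets, with Il2ra, Il2rb and Il7r marked. The marked genes lie in the central cloud, Il2ra at -0.10 (brighter) and -0.014 (dimmer) and Il7r at -0.023 and -0.14.

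Chains that pair with these receptors or share their ligands were measured for 3 genes, of which Il13ra1 differed most. The IL-21 receptor chain Il21r, also a partner of the gamma chain, read 10.16 (fl/wt) against 10.24 (fl/fl), differing by 0.077. Crlf2, the partner of Il7r, read 12.59 and 12.60, a difference of 0.011. Il13ra1, the partner of Il4ra in the type II receptor, was lower in fl/fl by both of its measured probe sets. The brighter read 6.03 (fl/wt) against 5.67 (fl/fl), differing by -0.36, and the dimmer 5.54 and 5.01, a difference of -0.53. Among probe sets near them in level, 16.3 and 4.85 percent differed by at least as much. Both readings are close to log2 5. With a floor of log2 6 the fl/fl value was set to 6, so the Il13ra1 difference of -0.028 is then only a lower bound. Il13ra2, a second receptor for IL-13, was under log2 5 in both arrays.

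The cytokines themselves were mostly in the low end. Of 6 genes, Il2, Il7, Il9 and Il21 were under log2 5 in both arrays. Il15 read 7.60 (fl/wt) against 7.35 (fl/fl), differing by -0.25, and 16.3 percent of the probe sets near it in level differed by at least as much. Il4 read 5.11 and 5.12.

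Downstream of the receptors, 17 of 18 listed signalling genes had a probe set and 16 of them reached log2 5. The fl/fl array read 5 of them higher and 11 lower, against 47.5% and 52.5% of all genes, and the median was -0.030. None was past 1.5-fold, against 0.645% of all genes. The kinases read 12.82 (fl/wt) against 12.89 (fl/fl) for Jak1, a difference of 0.072, and 9.55 and 9.58 for Jak3, a difference of 0.035. The other measured Jak1 probe sets differed by 0.0043, at 12.35 in both arrays, and by 0.026. The 2 Stat5 genes lay on opposite sides, Stat5a at 0.13 and Stat5b at -0.077, and the other measured Stat5b probe set differed by 0.049. Stat6, which IL-4 activates, differed by -0.043, and its other measured probe set by 0.0064. By the brightest probe set of each gene, the largest difference was that of the adaptor Shc1, -0.28, read by 1 measured probe set at 9.06 (fl/wt) against 8.78 (fl/fl). Of 2944 probe sets near Shc1 in level, 2.14 percent differed by at least as much. Pik3r1, a regulatory subunit of PI3 kinase, differed by -0.044 in its brightest probe set, by -0.27 in the next and by 0.16 in the dimmest measured one. Only 0.616 percent of the 2760 probe sets near the middle reading in level differed by at least as much, while the 3 readings of the gene differ in sign.

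Feedback inhibitors that IL-2 induces through Stat5 were read as well. Cish read 12.93 (fl/wt) against 12.81 (fl/fl), differing by -0.12, and 3.06 percent of the 1307 probe sets near it in level differed by at least as much. Cish has 1 probe set here, so its reading has no second check. Socs2 differed by -0.035, with its 3 measured probe sets from -0.049 to 0.045. Socs3 differed by 0.0063, with its 3 measured probe sets from 0.0063 to 0.085. Socs1 reached log2 5 only in fl/wt, at 5.11 against 4.90. In the wider list of 22 genes that respond to IL-2 and Stat5, of which Il2ra and Cish are members, 21 reached log2 5. Of these 6 read higher and 15 lower, against 47.5% and 52.5% of all genes, and the median was -0.057. The 2 past 1.5-fold, against 0.645% of all genes, were Gzmb (-0.68) and Prf1 (a lower bound of -0.63). This list was drawn up knowing that such genes had read lower in these arrays, so its direction is not independent evidence.

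**Figure D4:**
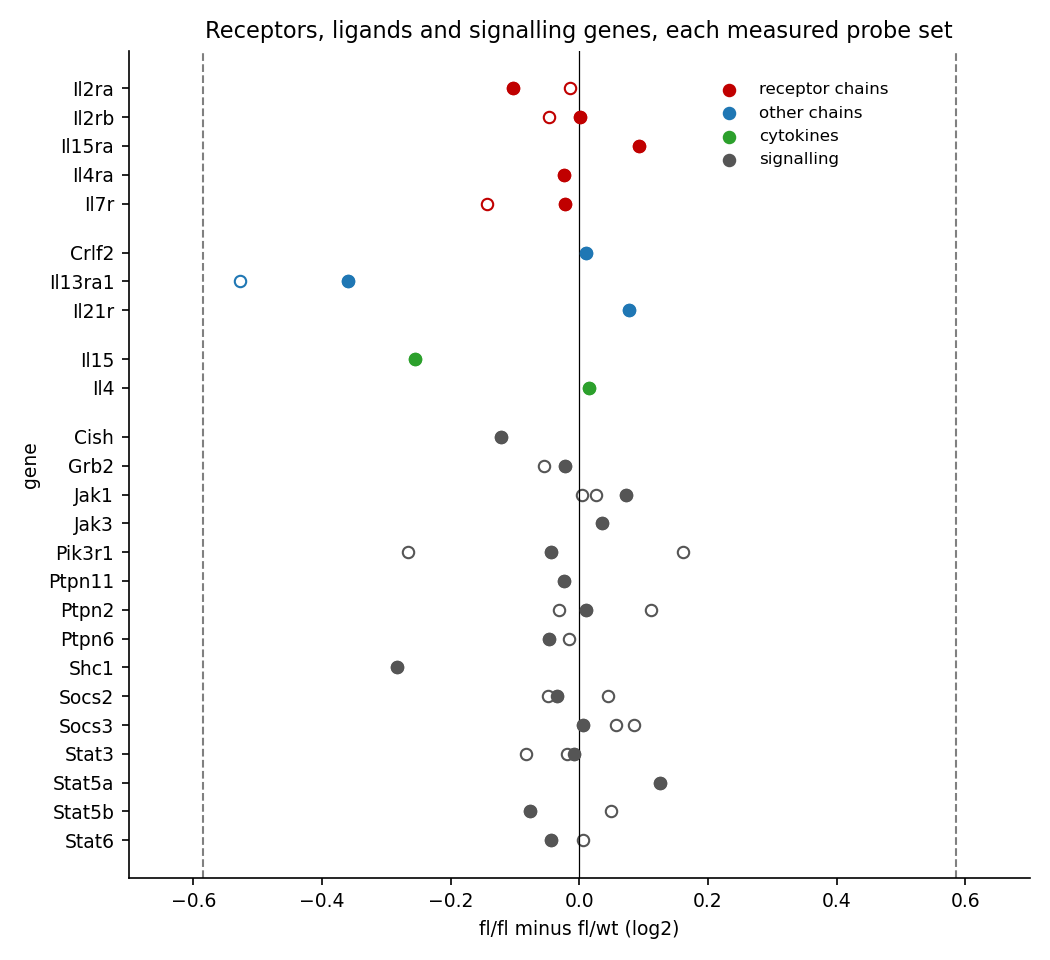
Difference fl/fl minus fl/wt (log2) of each measured probe set of the receptor chains, other chains, cytokines and signalling genes, with the brightest probe set of a gene filled, the others open, and dashed lines at 1.5-fold. All points lie inside the lines, and Il13ra1 (-0.36 and -0.53) lies furthest from 0.

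Other cytokine receptors of the type I and II families ranged, each by its brightest probe set, from -0.86 to 0.20 over 15 measured genes. Of these receptors 4 read higher and 11 lower, against 47.5% and 52.5% of all genes, and the median was -0.038. They differ from the gamma chain receptors in number and level, and the difference between the lists was not tested. By the brightest probe set 1 of the 15 was past 1.5-fold, against 0.645% of all genes. It was the erythropoietin receptor gene Epor, at 7.38 (fl/wt) against 6.52 (fl/fl). Csf3r, the G-CSF receptor, read 6.63 and 6.83, and Il6ra, the IL-6 receptor that signals through Stat3, 9.49 and 9.59. Ifnar1, an interferon receptor chain, differed by -0.17, and its other measured probe set by 0.012. Dimmer probe sets of this list reached further: Csf2rb, the shared beta chain of the IL-3, IL-5 and GM-CSF receptors, differed by -0.092 in its brighter probe set and by -1.04 in its dimmer one, past 1.5-fold. Il10rb, an IL-10 receptor chain, differed by -0.064 in its brighter and by 0.33 in its dimmer probe set. These dimmer readings were not set beside probe sets near them in level, and scatter widens as level falls.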

How the data were processed

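The deposited values are on the log2 scale, which was read from their range (0.53 to 16.9), for 45101 probe sets in each of 2 arrays. The authors made them with GCRMA, per the submitters' processing notes, with version, settings and the arrays processed together not given. GCRMA estimates background from the probes' sequence, subtracts it and normalises between arrays, so dim readings have no order. Of 45037 probe sets that are not controls, 34945 were paired with 1 gene symbol, 932 with several and 9160 with none. The 6 receptor genes with a probe set kept their symbols in the RefSeq table.

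For a gene, the probe set of highest mean was used. Genes at or above log2 5 in an array were kept, and lower values were set to 5, which makes a difference a lower bound. Python 3.11.15 with pandas 2.3.3 and statsmodels 0.14.6 (lowess, span 0.3) was used. The procedure was tested on simulated data with added shifts well past 1.5-fold. That test does not cover differences as small as those of the receptors. Members, lists and alternatives were chosen with earlier results of these data known. All receptor, signalling and partner genes could be named. Of other lists, the 2 largest differences each way could be, with the 2 brightest of the markers. Foxp3 and Stat3 were named as checks. Ncr1, Pax5, Bach2, Csf2rb and Il10rb were chosen after their values were seen. With 2 arrays, no likeness of pattern between genes can be measured. The number of arrays limits the precision.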

Additional observations from a re-analysis of the deposited data

How the results depend on the processing

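Over 9 alternatives (8 for Il4ra), differences ran from -0.10 to -0.058 for Il2ra, -0.083 to -0.018 for Il7r, -0.024 to -0.020 for Il4ra, 0.077 to 0.094 for Il15ra and -0.023 to 0.0059 for Il2rb. Il2rb changed sign as the median of its probe sets (-0.023), which left 1 receptor gene higher in place of 2 and 4 lower in place of 3. With no floor, or with 32 added on the linear scale, Il9r enters and 3 were higher and 3 lower; with plain probe sets Il4ra is left out and 2 were higher and 2 lower. Counting only differences of at least 0.05, a choice made after the data were seen, gave 1 higher and 1 lower. No receptor gene passed 1.5-fold under any alternative, or 1.2-fold as reported. The floors of log2 4 and 6, no floor and plain probe sets kept the same brightest probe sets. They therefore could not change the difference of a measured receptor gene that stayed in. Of 193 alternative values of differences and list medians, 8 changed sign. The receptor differences are themselves smaller than the SD (0.14) of readings within a gene, so staying within it shows no stability. Of the 193 values, 3 lay further than that SD from those reported. The Il13ra1 difference was -0.028 with a floor of log2 6, a lower bound because its fl/fl value was set to 6. The median of other pairing chains was -0.14 with plain probe sets, and that of the cytokines was 0.019 with no floor. Centring, quantile normalisation and lowess moved the median of all genes to -0.0027, -0.00097 and -0.0017. No paired analysis was possible because each genotype has 1 array, and no replicate could be left out.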

Other observations

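Genes of quiescent, recirculating T cells, a list that includes Il7r, read much alike in both arrays by their brightest probe sets. Of 11 listed, 9 were measured, 4 higher and 5 lower in fl/fl, against 47.5% and 52.5% of all genes. The median was -0.00089 and none was past 1.5-fold, against 0.645% of all genes. The sign of this median changed with centring (0.00096), quantile normalisation (0.0061) and lowess (0.0013). By the brightest probe set of each gene, the range ran from -0.083 for the forkhead factor Foxo3 to 0.061 for Lef1. Dimmer probe sets reached further, as the measured ones of Bach2 ran from -0.0037 to 0.39. Ccr7, which guides T cells into lymph nodes, read 11.70 (fl/wt) against 11.67 (fl/fl), and S1pr1, which lets them leave, 11.24 against 11.28.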
